A study of Mus musculus with 7 samples.

Results

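The 9 transcription factors described here, Pou5f1, Sox2, Nanog, Klf4, Utf1, Zfp42, Esrrb, Tfcp2l1 and Sall4, were taken by name as factors of the pluripotency network, out of 20643 genes in the table, and all 9 had a value in every library. Total RNA was sequenced from EGFP+ germ cells sorted from 15.5 dpc mouse fetal testes (prospermatogonia, the fetal male germ cells that have stopped dividing; a second label of the same samples gives 15 dpc). The 7 libraries came from H19Ter+neo/H19Ter+neo fetuses (n = 3), H19Ter/H19Ter fetuses (n = 2) and wild-type (WT) fetuses (n = 2). Both mutant alleles carry a transcription terminator cassette placed to stop a transcript before it enters the imprinting control region of H19/Igf2. The H19Ter+neo allele also keeps the Pgkneo selection cassette, and the H19Ter allele is the same insertion after Cre had removed that cassette. Both alleles go back to a single targeted ES cell line, the mutant fetuses came from homozygous parents of the same genotype, and testes could be pooled for digestion. Litter and genetic background of each library were not given, so that they and genotype cannot be told apart. The germ cells were sorted by EGFP driven by the Pou5f1 promoter (the TgOG2 transgene). Pou5f1 therefore shares its promoter with the marker of the gate.

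Pluripotency factors are DNA-binding proteins that hold embryonic stem cells and the early epiblast in an undifferentiated state by activating their own and each other's genes. Primordial germ cells switch on much of this network again, and after the gonad has become a testis the male germ cells enter mitotic arrest and lower it while genes of the prospermatogonial programme, such as those for de novo DNA methylation and piRNAs, come on. Pou5f1 (Oct4), Sox2 and Nanog form the core of the network. Esrrb, Tfcp2l1, Klf4 and Zfp42 (Rex1) belong to its naive-state arm. Utf1 and Sall4 are also known from germ cells, where Sall4 stays on in spermatogonia after birth.

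The genes of the table received 84.1 M, 86.3 M and 87.3 M read pairs (M, 1000000) in H19Ter+neo/H19Ter+neo libraries, 51.2 M and 37.5 M in H19Ter/H19Ter libraries and 45.1 M and 45.9 M in WT libraries, so the H19Ter+neo/H19Ter+neo libraries were the deepest. The 9 factors had between 563 read pairs (Klf4, WT replicate 2) and 49815 read pairs (Sall4, H19Ter+neo/H19Ter+neo replicate 6) in a library. Levels are given as CPM (read pairs per 1000000, scaled to the effective library size), and changes as log2 fold changes with their standard error from limma fitted over all 20643 genes, called where the Benjamini-Hochberg adjusted p was under 0.05. Germ cell genes were expressed in every library, and the levels of 20 male germ cell differentiation genes summed to between 6377 and 6677 CPM in H19Ter+neo/H19Ter+neo, between 5612 and 5820 CPM in H19Ter/H19Ter and between 5745 and 5840 CPM in WT libraries. Markers of Sertoli cells (11 of 13 with a value) summed to at most 43.3 CPM in any library. Since RNA came from bulk cells, fewer cells that express a factor and less RNA of it per cell cannot be told apart. The alleles insert a terminator and delete no gene, so no gene level was used to check the labels.

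Of the 9 factors, 7 fell in H19Ter+neo/H19Ter+neo relative to WT (Pou5f1, Sox2, Nanog, Utf1, Zfp42, Esrrb and Tfcp2l1), while 26.7% of all genes were called lower. Klf4 rose, where 27.7% of all genes were called higher, and Sall4 did not pass. In H19Ter/H19Ter relative to WT, Sox2 and Esrrb fell, with 11.0% of all genes called lower, Klf4 rose, with 14.1% called higher, and 6 factors did not pass. Between the mutants, 6 factors were lower in H19Ter+neo/H19Ter+neo than in H19Ter/H19Ter (Pou5f1, Sox2, Nanog, Zfp42, Esrrb and Tfcp2l1), where 15.2% of all genes were called lower. None of the 9 was called higher in that comparison, since all 9 log2 fold changes by limma were below 0, while 12.5% of all genes were called higher. All 9 factors are among the 14205 genes with a mean log2 CPM of at least 1. Of those genes, 4727 were called lower and 3500 higher in H19Ter+neo/H19Ter+neo against WT. In H19Ter/H19Ter against WT, 2105 were lower and 1792 higher, and between the mutants 2781 were lower and 2241 higher. The median log2 fold change over the 9 factors was -0.66 for H19Ter+neo/H19Ter+neo against WT, -0.08 for H19Ter/H19Ter against WT and -0.58 for H19Ter+neo/H19Ter+neo against H19Ter/H19Ter. Over all genes it was 0.01 for H19Ter+neo/H19Ter+neo against WT, -0.01 for H19Ter/H19Ter against WT and 0.01 for H19Ter+neo/H19Ter+neo against H19Ter/H19Ter. The first 2 comparisons share the WT libraries, so they are not independent of each other.

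**Figure D1:**
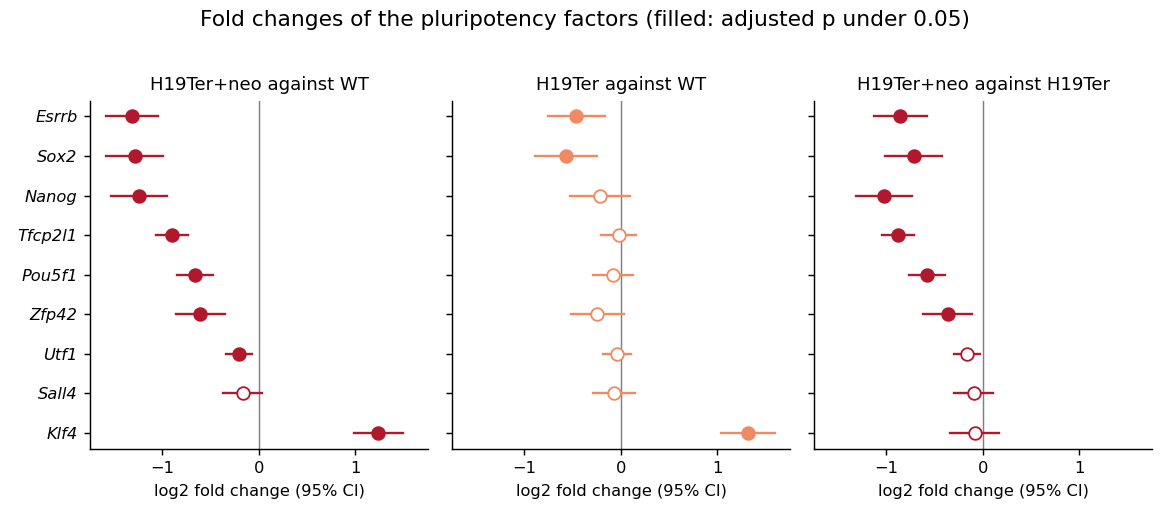
Log2 fold changes (x axis, with 95% confidence intervals as lines) of the 9 factors (y axis) from limma, in H19Ter+neo/H19Ter+neo against WT, in H19Ter/H19Ter against WT, and in H19Ter+neo/H19Ter+neo against H19Ter/H19Ter. Filled points had an adjusted p under 0.05; Klf4 is the 1 factor to the right of 0 with a filled point, and Esrrb, Sox2 and Nanog lie farthest to the left in the first panel.

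Pou5f1 encodes the POU factor at the centre of the network (chr17:35506018-35510772, plus strand, GRCm38). Its level was 170.8, 184.7 and 147.6 CPM in H19Ter+neo/H19Ter+neo, 249.2 and 249.7 CPM in H19Ter/H19Ter and 256.9 and 272.1 CPM in WT. All 3 H19Ter+neo/H19Ter+neo libraries lay below the other 4, and the H19Ter/H19Ter libraries lay just under WT. Pou5f1 fell by 0.66 ± 0.08 on the log2 scale (SE) in H19Ter+neo/H19Ter+neo against WT, to 63.2% of the WT level (limma adjusted p = 0.000143). It was also lower against H19Ter/H19Ter (log2 fold change -0.58 ± 0.08, limma adjusted p = 0.0011). In H19Ter/H19Ter against WT the log2 difference of -0.08 did not pass (95% CI -0.29 to 0.12, limma adjusted p = 0.536). An antisense transcript, Gm19553, lies opposite 14.1% of the exon bases of Pou5f1, and how the counting used strand was not given, so reads of the pair cannot be told apart. The processed pseudogene Gm5712 matches the Pou5f1 transcript at 87.2% identity over 1074 bases and is not a row of the table.

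Sox2 encodes the HMG-box partner with which Oct4 binds DNA (chr3:34650405-34652461, plus strand, a gene of 1 exon). It stood at 31.2, 28.1 and 21.8 CPM in H19Ter+neo/H19Ter+neo, 45.8 and 42.1 CPM in H19Ter/H19Ter and 60.9 and 69.7 CPM in WT. No library of a genotype overlapped with another genotype, and the H19Ter/H19Ter libraries lay between the other 2 groups. Sox2 fell to 41.0% of WT in H19Ter+neo/H19Ter+neo (log2 fold change -1.29 ± 0.13, limma adjusted p = 4.63e-05) and was lower there than in H19Ter/H19Ter (-0.72 ± 0.13, limma adjusted p = 0.00373). In H19Ter/H19Ter it was at 67.4% of WT (-0.57 ± 0.15, limma adjusted p = 0.0198). This last call did not survive the removal of WT replicate 2 (-0.47, limma adjusted p = 0.159), H19Ter/H19Ter replicate 3 (-0.63, limma adjusted p = 0.063) or H19Ter/H19Ter replicate 4 (-0.51, limma adjusted p = 0.12).

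Nanog encodes the homeodomain factor of the core (chr6:122707489-122714633, plus strand). Its level was 16.9, 13.5 and 15.0 CPM in H19Ter+neo/H19Ter+neo, 31.2 and 30.1 CPM in H19Ter/H19Ter and 30.8 and 41.1 CPM in WT. The H19Ter+neo/H19Ter+neo libraries lay far below the rest, whereas those of H19Ter/H19Ter overlapped with WT, which itself spread widely. Nanog fell to 42.4% of WT in H19Ter+neo/H19Ter+neo (log2 fold change -1.24 ± 0.13, limma adjusted p = 4.77e-05) and to 49.2% of the H19Ter/H19Ter level (-1.02 ± 0.13, limma adjusted p = 0.000499). The log2 difference between H19Ter/H19Ter and WT was -0.22 (95% CI -0.53 to 0.10, limma adjusted p = 0.285), and it ranged over the alternative settings between -0.42 and -0.01.

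**Figure D2:**
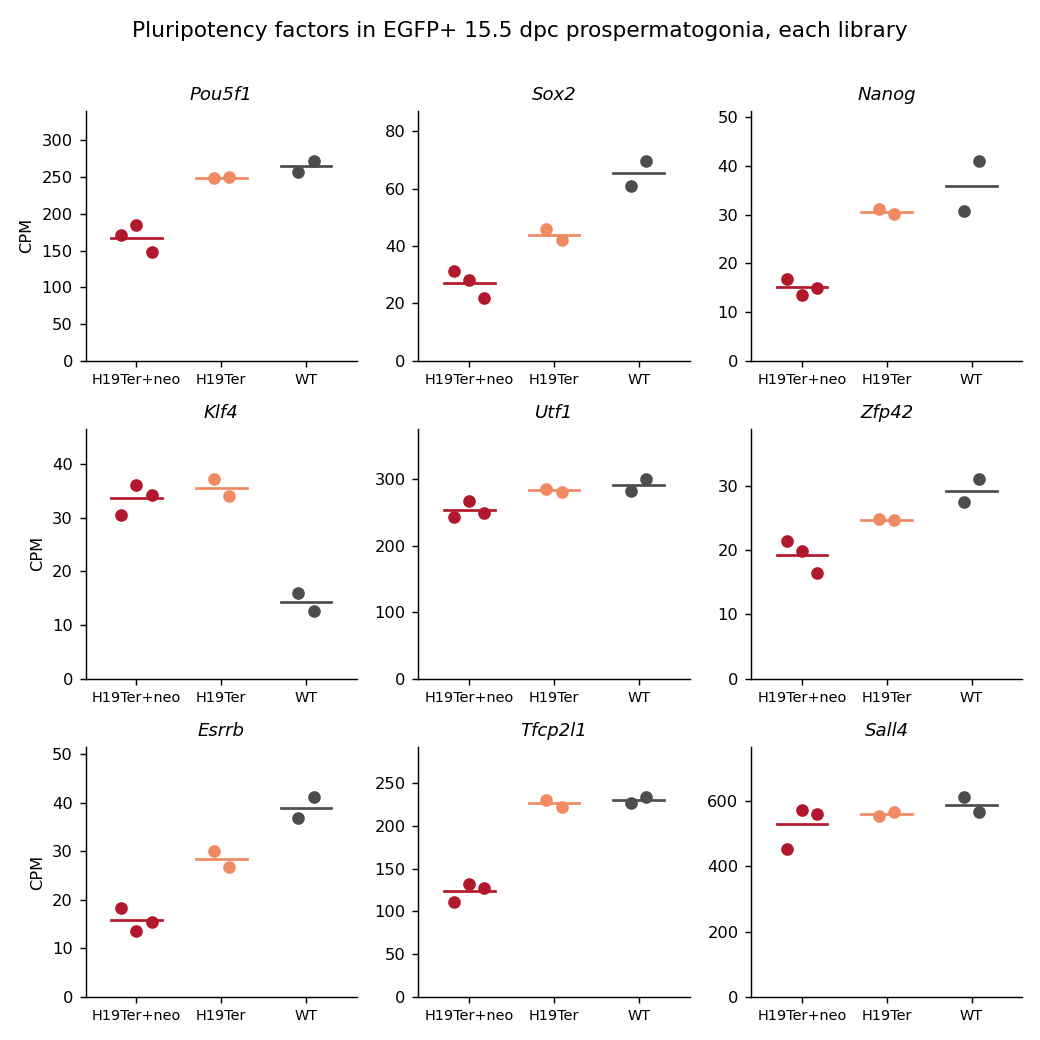
CPM (y axes, from 0, a separate scale for each gene) of the 9 factors in each library of H19Ter+neo/H19Ter+neo, H19Ter/H19Ter and WT prospermatogonia (x axes, in that order). Points are libraries and lines are means; Sox2 and Esrrb step down through 3 separate levels from right to left, Nanog, Pou5f1 and Tfcp2l1 are low in the H19Ter+neo/H19Ter+neo libraries, and Klf4 is low in the WT libraries.

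The start regions of these genes are shown because the Oct4 and Sox2 proteins bind short DNA words, the octamer and the SOX core, that core network genes carry near their promoters. RefSeq windows from 250 bases before to 50 bases after a start site were on hand for 8 of the 9 factors (11 windows; Sall4 had none). The octamer core TTTGCAT, searched on both strands, was in 1520 of 32851 such windows (4.63%) and in windows of 3 factors, Sox2, Nanog and Zfp42. TTTGCAT followed by any base and ACAATG, the order in which the 2 proteins sit side by side, was in 2 of 32851 windows (0.00609%), and both were overlapping windows of Nanog. The GC box GGGGCGGGG was in 3760 windows (11.4%) and in windows of 4 factors, Pou5f1, Sox2, Klf4 and Utf1. The words were chosen after the sequences had been seen, a match is a description of the letters, and the RNA data do not test binding. The 3 stretches with an octamer core (60 bases each, read 5' to 3' on the gene's strand, GRCm38.p6) have the match in capitals, for Nanog together with the SOX core, and the Pou5f1 window has its GC box in capitals. They lie at chr3:34649869-34649928 (Sox2, plus strand), chr6:122707391-122707450 (Nanog, plus strand), chr8:43307162-43307221 (Zfp42, minus strand) and chr17:35505782-35506081 (Pou5f1, plus strand). The RefSeq window of Sox2 (chr3:34649745-34650044) ends before the GENCODE gene start given above (34650405), so the annotations place its start differently. A GC box in the Sox2 stretch is left in small letters.
Sox2: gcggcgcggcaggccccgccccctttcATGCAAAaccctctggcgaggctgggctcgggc
Nanog: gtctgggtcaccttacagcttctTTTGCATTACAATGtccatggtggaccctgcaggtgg
Zfp42: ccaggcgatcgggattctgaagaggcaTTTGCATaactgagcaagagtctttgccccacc
Pou5f1: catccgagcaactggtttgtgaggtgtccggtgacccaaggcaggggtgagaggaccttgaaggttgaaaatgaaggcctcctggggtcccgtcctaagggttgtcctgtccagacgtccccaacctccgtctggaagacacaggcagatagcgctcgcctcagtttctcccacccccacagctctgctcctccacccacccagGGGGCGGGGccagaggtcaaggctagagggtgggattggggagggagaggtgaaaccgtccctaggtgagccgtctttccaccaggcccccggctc
Of these 4 genes, Sox2 and Nanog fell in H19Ter+neo/H19Ter+neo to 41.0% and 42.4% of WT, and Pou5f1 and Zfp42 to 63.2% and 65.7%. Esrrb and Tfcp2l1, whose windows held none of these words, fell to 40.2% and 53.6%. With a GC box but no octamer core, Pou5f1 was at 63.2% of WT, Utf1 at 86.8% and Klf4 at 235.3%. A link between the words and the changes was not tested.

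Esrrb encodes an orphan nuclear receptor of the naive-state arm (chr12:86361117-86521628, plus strand). It stood at 18.3, 13.7 and 15.3 CPM in H19Ter+neo/H19Ter+neo, 30.02 and 26.7 CPM in H19Ter/H19Ter and 36.9 and 41.2 CPM in WT. As for Sox2, the 3 genotypes did not overlap and H19Ter/H19Ter lay in between. The largest fall of the 9 factors against WT was that of Esrrb in H19Ter+neo/H19Ter+neo, to 40.2% (log2 fold change -1.31 ± 0.12, limma adjusted p = 2.69e-05), although the intervals of Sox2 and Nanog overlapped with it. Esrrb was also lower there than in H19Ter/H19Ter (-0.85 ± 0.12, limma adjusted p = 0.000977). In H19Ter/H19Ter it was at 72.7% of WT (-0.46 ± 0.13, limma adjusted p = 0.0319). Leaving out any 1 of the 4 libraries of this comparison ended that call, by limma with a log2 fold change of -0.54 (adjusted p = 0.0701) when H19Ter/H19Ter replicate 3 was left out, -0.38 (adjusted p = 0.184) for H19Ter/H19Ter replicate 4, -0.54 (adjusted p = 0.0593) for WT replicate 1 and -0.38 (adjusted p = 0.21) for WT replicate 2.

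Tfcp2l1, a CP2-family factor that works downstream of LIF signalling in mouse embryonic stem cells (chr1:118627945-118685168, plus strand), had the smallest adjusted p of the 9 factors between the mutants. It had 111.1, 132.2 and 127.1 CPM in H19Ter+neo/H19Ter+neo, 230.2 and 222.2 CPM in H19Ter/H19Ter and 226.2 and 233.7 CPM in WT. The H19Ter+neo/H19Ter+neo libraries were alone at the low level, and the other 4 lay together. Tfcp2l1 fell to 53.6% of WT (log2 fold change -0.90 ± 0.08, limma adjusted p = 1.71e-05) and to 54.5% of H19Ter/H19Ter (-0.88 ± 0.08, limma adjusted p = 7.7e-05). Between H19Ter/H19Ter and WT the log2 difference was -0.02 (95% CI -0.21 to 0.16, limma adjusted p = 0.857).

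Zfp42 (Rex1), a zinc finger protein used as a marker of naive embryonic stem cells (chr8:43295063-43306980, minus strand), had 21.5, 19.9 and 16.5 CPM in H19Ter+neo/H19Ter+neo, 24.8 and 24.6 CPM in H19Ter/H19Ter and 27.5 and 31.1 CPM in WT. The genotypes did not overlap. Zfp42 fell in H19Ter+neo/H19Ter+neo against WT (log2 fold change -0.61 ± 0.11, limma adjusted p = 0.00137), and the difference of -0.24 between H19Ter/H19Ter and WT did not pass (95% CI -0.52 to 0.04, limma adjusted p = 0.178). The difference between the mutants passed by little (-0.36 ± 0.11, limma adjusted p = 0.0379). It was lost without H19Ter/H19Ter replicate 3 (-0.36, limma adjusted p = 0.162), H19Ter/H19Ter replicate 4 (-0.37, limma adjusted p = 0.142), H19Ter+neo/H19Ter+neo replicate 6 (-0.39, limma adjusted p = 0.0553) or H19Ter+neo/H19Ter+neo replicate 7 (-0.26, limma adjusted p = 0.0763).

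Klf4, a Krüppel-like zinc finger factor of the reprogramming set that differentiated cells such as Sertoli cells and epithelia also use (chr4:55527143-55532466, minus strand), moved the other way. It had 30.5, 36.2 and 34.1 CPM in H19Ter+neo/H19Ter+neo, 37.2 and 34.0 CPM in H19Ter/H19Ter and 16.0 and 12.7 CPM in WT. Both mutants lay above both WT libraries and overlapped with each other. Klf4 rose to 2.35-fold the WT level in H19Ter+neo/H19Ter+neo (log2 fold change 1.23 ± 0.11, limma adjusted p = 2.61e-05) and to 2.50-fold in H19Ter/H19Ter (1.32 ± 0.13, limma adjusted p = 0.00023). The difference between the mutants was -0.09 (95% CI -0.34 to 0.17, limma adjusted p = 0.614). Both calls against WT held under every alternative setting, with log2 fold changes between 1.06 and 1.40 in H19Ter+neo/H19Ter+neo and between 1.15 and 1.49 in H19Ter/H19Ter.

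Since other cells of the testis express Klf4, their marker lists are set beside it. The 11 Sertoli cell markers summed to between 31.0 and 40.6 CPM in H19Ter+neo/H19Ter+neo, between 37.7 and 43.3 CPM in H19Ter/H19Ter and between 35.0 and 35.2 CPM in WT. The 12 interstitial and peritubular markers summed to 50.8 to 90.9 CPM in H19Ter+neo/H19Ter+neo, 65.6 to 131.3 CPM in H19Ter/H19Ter and 55.7 to 69.3 CPM in WT. The Leydig cell list (8 of 10 with a value) summed to 30.8 to 60.8 CPM in H19Ter+neo/H19Ter+neo, 34.1 to 49.3 CPM in H19Ter/H19Ter and 34.2 to 39.2 CPM in WT. The sums of these 3 lists overlapped between each mutant and WT, except the Sertoli cell list in H19Ter/H19Ter, whose 2 libraries lay above WT. Single markers of 2 of these lists rose with Klf4 in both mutants and are named after their values had been seen. Sox9, the Sertoli cell determinant, rose by 0.83 ± 0.15 on the log2 scale in H19Ter+neo/H19Ter+neo (limma adjusted p = 0.00112) and by 1.40 ± 0.17 in H19Ter/H19Ter (limma adjusted p = 0.00078) against WT. Pdgfrb, a receptor gene of pericytes and stroma, rose by 1.72 ± 0.16 in H19Ter+neo/H19Ter+neo (limma adjusted p = 2.68e-05) and by 2.0 ± 0.18 in H19Ter/H19Ter (limma adjusted p = 0.000136). Other markers of the same 2 lists went the other way against WT. In H19Ter+neo/H19Ter+neo, Amh (-0.92 ± 0.27, limma adjusted p = 0.0159) and Wt1 (-0.78 ± 0.22, limma adjusted p = 0.0121) fell. The interstitial marker Col1a1 fell there too (-0.64 ± 0.24, limma adjusted p = 0.0463). In H19Ter/H19Ter, the Sertoli cell marker Cst9 fell (-1.76 ± 0.50, limma adjusted p = 0.03). Over all genes, 27.7% were called higher and 26.7% lower in H19Ter+neo/H19Ter+neo against WT, and 14.1% and 11.0% in H19Ter/H19Ter against WT. The calls of each marker list are given beside these shares. In H19Ter+neo/H19Ter+neo against WT, 1 Sertoli cell marker was called higher and 2 lower, 2 interstitial markers higher and 1 lower, and 1 Leydig cell marker higher and 0 lower. In H19Ter/H19Ter against WT, 2 Sertoli cell markers were called higher and 1 lower, and 1 interstitial marker higher. Without H19Ter+neo/H19Ter+neo replicate 5 the calls in H19Ter+neo/H19Ter+neo were 1 higher and 4 lower for interstitial markers and 0 higher and 3 lower for Leydig cell markers, and without H19Ter/H19Ter replicate 4 the interstitial markers called higher in H19Ter/H19Ter were 4. The 10 endothelial markers summed to 48.8 to 53.2 CPM in H19Ter+neo/H19Ter+neo, 51.1 to 51.2 CPM in H19Ter/H19Ter and 42.8 to 43.0 CPM in WT. In H19Ter+neo/H19Ter+neo against WT, 6 were called higher and 2 lower, Plvap (-1.02 ± 0.14, limma adjusted p = 0.000199) and Cldn5 (-1.74 ± 0.60, limma adjusted p = 0.0311). In H19Ter/H19Ter against WT, 2 were called higher and 1 lower, Plvap (-0.87 ± 0.15, limma adjusted p = 0.00403). The calls of this list in H19Ter/H19Ter changed when a library was left out. Of the blood cell list, 3 of 11 genes had a value. Their sum was 8.6 to 10.9 CPM in H19Ter+neo/H19Ter+neo, 8.2 to 9.6 CPM in H19Ter/H19Ter and 5.8 to 7.7 CPM in WT. Against WT, 2 of the 3 were called higher and 0 lower in H19Ter+neo/H19Ter+neo, and 0 were called in H19Ter/H19Ter. Cd68 did not pass in H19Ter+neo/H19Ter+neo (-0.15 ± 0.15, limma adjusted p = 0.398), and Adgre1 had as few as 4 read pairs in a library. No marker with a value was at 0 in any library. The part of other cells in the Klf4 result was not tested.

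Utf1, a chromatin-bound protein of embryonic stem cells and spermatogonia (chr7:139943789-139945112, plus strand), changed little. It had 242.9, 267.5 and 249.8 CPM in H19Ter+neo/H19Ter+neo, 285.7 and 281.4 CPM in H19Ter/H19Ter and 282.7 and 300.8 CPM in WT. Utf1 fell to 86.8% of WT in H19Ter+neo/H19Ter+neo (log2 fold change -0.20 ± 0.06, limma adjusted p = 0.0156), the smallest change of a factor that passed. That call ended when WT replicate 2 was removed (-0.16, limma adjusted p = 0.142) and after trends with GC content and gene length had been removed (-0.05, limma adjusted p = 0.584), an alternative chosen after seeing the data. Utf1 has the highest GC content of the 9 factors (63.5% of the bases of its longest transcript). Against H19Ter/H19Ter its difference of -0.16 did not pass (95% CI -0.30 to -0.03 without adjustment, limma adjusted p = 0.0679), but it passed with the same total per library (-0.23, limma adjusted p = 0.0242) and without H19Ter+neo/H19Ter+neo replicate 6 (-0.20, limma adjusted p = 0.0413). Between H19Ter/H19Ter and WT the libraries of Utf1 overlapped (log2 difference -0.04, 95% CI -0.19 to 0.11, limma adjusted p = 0.682).

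Sall4, the spalt-family zinc finger protein that germ cells keep (chr2:168748332-168767943, minus strand), did not pass in any of the 3 comparisons. Its level was 453.2, 571.8 and 559.3 CPM in H19Ter+neo/H19Ter+neo, 553.5 and 567.6 CPM in H19Ter/H19Ter and 612.1 and 566.2 CPM in WT. The genotypes overlapped, with H19Ter+neo/H19Ter+neo replicate 5 below the other 6 libraries. The log2 difference was -0.16 for H19Ter+neo/H19Ter+neo against WT (95% CI -0.37 to 0.04, limma adjusted p = 0.149), -0.07 for H19Ter/H19Ter against WT (95% CI -0.29 to 0.15, limma adjusted p = 0.634) and -0.09 for H19Ter+neo/H19Ter+neo against H19Ter/H19Ter (95% CI -0.30 to 0.11, limma adjusted p = 0.475). The transcript Gm14261 lies opposite 9.5% of the exon bases of Sall4.

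A ratio of 2 genes within a library does not depend on how libraries were scaled, and Sall4 as the denominator shows which factors changed relative to it. The log2 ratio of Tfcp2l1 to Sall4 was -2.03, -2.11 and -2.14 in H19Ter+neo/H19Ter+neo, -1.27 and -1.35 in H19Ter/H19Ter and -1.44 and -1.28 in WT. For Nanog it was -4.75, -5.40 and -5.22 in H19Ter+neo/H19Ter+neo, -4.15 and -4.24 in H19Ter/H19Ter and -4.31 and -3.78 in WT. Tfcp2l1 and Nanog were thus lower relative to Sall4 in all 3 H19Ter+neo/H19Ter+neo libraries than in the other 4. The ratio of Pou5f1 was -1.41, -1.63 and -1.92 in H19Ter+neo/H19Ter+neo, -1.15 and -1.18 in H19Ter/H19Ter and -1.25 and -1.06 in WT, and the ratios of Sox2 and Esrrb were lowest in H19Ter+neo/H19Ter+neo too, without overlap. For Zfp42, H19Ter+neo/H19Ter+neo replicate 5 (-4.40) lay between the WT libraries (-4.48 and -4.19), so that the fall of Zfp42 against WT was not seen in every library relative to Sall4. The other H19Ter+neo/H19Ter+neo libraries had -4.84 and -5.08. Replicate 5 is the library with the lowest Sall4 (453.2 CPM), and its Zfp42 level of 21.5 CPM was below both WT libraries (27.5 and 31.1 CPM). The ratio of Utf1 overlapped in all 3 genotypes. That of Klf4 was -3.89, -3.98 and -4.03 in H19Ter+neo/H19Ter+neo, -3.89 and -4.06 in H19Ter/H19Ter and -5.26 and -5.48 in WT, so the low Klf4 of the WT libraries was present relative to Sall4 as well.

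Levels of different genes were compared per kb of merged exon. Utf1 was the highest of the 9 in every genotype, at 206.5 CPM per kb in H19Ter+neo/H19Ter+neo, 231.1 in H19Ter/H19Ter and 237.8 in WT. Pou5f1 and Sall4 followed, at 74.6 and 95.4 CPM per kb in H19Ter+neo/H19Ter+neo (their ranges overlapped), 111.0 and 101.3 in H19Ter/H19Ter and 117.7 and 106.4 in WT. The order below them differed between genotypes. In H19Ter+neo/H19Ter+neo, Sox2 (13.1 CPM per kb), Tfcp2l1 (13.1), Klf4 (11.0) and Zfp42 (10.3) could not be put in order, since each range overlapped with the next, and Nanog (6.74) and Esrrb (2.61) came last. In H19Ter/H19Ter the order was Tfcp2l1 (24.0 CPM per kb), Sox2 (21.4), Nanog (13.7), Zfp42 (13.1), Klf4 (11.7) and Esrrb (4.69), with no overlap between neighbours over 2 libraries. In WT it was Sox2 (31.8 CPM per kb), Tfcp2l1 (24.4), Nanog (16.0) and Zfp42 (15.6), whose ranges overlapped, then Esrrb (6.45) and Klf4 (4.70). Klf4 was thus the lowest factor in WT and above both Nanog and Esrrb in H19Ter+neo/H19Ter+neo.

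**Figure D3:**
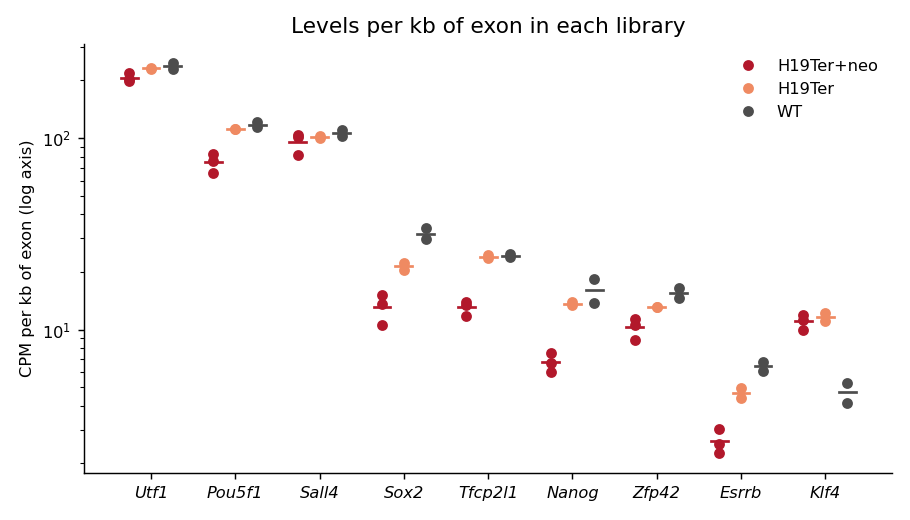
CPM per kb of merged exon (y axis, log scale) of the 9 factors (x axis, ordered by their WT level) in each library of H19Ter+neo/H19Ter+neo, H19Ter/H19Ter and WT. Points are libraries and lines are means; Utf1, Pou5f1 and Sall4 stay above the other 6 factors in every library, and Klf4 is the last factor in WT, at a mean of 4.70 CPM per kb.

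The summed level of the 9 factors was 1096, 1268 and 1187 CPM in H19Ter+neo/H19Ter+neo, 1488 and 1478 CPM in H19Ter/H19Ter and 1550 and 1569 CPM in WT, and the genotypes did not overlap. Sall4, which was not called in any comparison, made up between 36.1% (WT replicate 2) and 47.1% (H19Ter+neo/H19Ter+neo replicate 7) of it. The sum therefore follows the most abundant factors and does not show a shift of each of the 9. For 8 factors the lowest library was an H19Ter+neo/H19Ter+neo library (replicate 5 for 3 of them, replicate 6 for 2 and replicate 7 for 3), and for Klf4 it was WT replicate 2. WT replicate 2 was the highest library for 7 factors. In H19Ter/H19Ter against WT, 3 factors were called with all libraries, 2 without WT replicate 1, and only Klf4 without WT replicate 2, H19Ter/H19Ter replicate 3 or H19Ter/H19Ter replicate 4.

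The other genes of the network were described with a list of 30 genes that did not include the 9 factors, of which 28 had a value. In H19Ter+neo/H19Ter+neo against WT, 21 were lower, beside 26.7% of all genes, and 2 higher, beside 27.7% (median log2 fold change -0.86, beside 0.01 over all genes). In H19Ter/H19Ter against WT, 16 were lower, beside 11.0% of all genes, and 2 higher, beside 14.1% (median -0.56). Between the mutants, 14 were lower in H19Ter+neo/H19Ter+neo, beside 15.2% of all genes, and 1 was higher, beside 12.5% (median -0.36). The count of 16 was 4 without the mean-variance trend, 8 without H19Ter/H19Ter replicate 3, 4 without H19Ter/H19Ter replicate 4, 12 without WT replicate 1 and 1 without WT replicate 2. The count of 14 was 8 without the mean-variance trend and 6 without H19Ter/H19Ter replicate 3. The count of 21 stayed between 18 and 22 without the trend and when any library was left out. The summed level of the list was 2511 to 3028 CPM in H19Ter+neo/H19Ter+neo, 2993 to 3102 CPM in H19Ter/H19Ter and 3805 to 4231 CPM in WT.

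L1td1, an RNA-binding protein gene of embryonic stem cells, had the largest change of the list. Its log2 CPM was 2.91, 2.14 and 2.32 in H19Ter+neo/H19Ter+neo, 4.20 and 3.86 in H19Ter/H19Ter and 5.11 and 5.56 in WT, 3 levels without overlap (log2 fold change -2.88 ± 0.21, limma adjusted p = 1.02e-05, for H19Ter+neo/H19Ter+neo and -1.30 ± 0.24, limma adjusted p = 0.00453, for H19Ter/H19Ter against WT). Otx2, a homeobox gene of the primed epiblast, had log2 fold changes of -1.90 ± 0.29 (limma adjusted p = 0.000407) in H19Ter+neo/H19Ter+neo and -0.89 ± 0.32 (limma adjusted p = 0.0636) in H19Ter/H19Ter against WT. Tdh, the threonine dehydrogenase on which mouse embryonic stem cells depend, fell in both (-1.52 ± 0.21, limma adjusted p = 0.000235, in H19Ter+neo/H19Ter+neo and -0.97 ± 0.23, limma adjusted p = 0.0149, in H19Ter/H19Ter). The 2 genes of the list that rose against WT were the same in both mutants, Tbx3, a T-box factor, and Stat3, the transcription factor activated by LIF, and they are named after their values had been seen. In H19Ter+neo/H19Ter+neo 1 of the 2 calls was lost without the mean-variance trend and without WT replicate 1, WT replicate 2, H19Ter+neo/H19Ter+neo replicate 6 or H19Ter+neo/H19Ter+neo replicate 7, and the filter on low values leaves Tbx3 out. Klf5, a Krüppel-like relative of Klf4 on the same list, fell in both mutants (-1.26 ± 0.10, limma adjusted p = 1.54e-05, in H19Ter+neo/H19Ter+neo and -0.54 ± 0.11, limma adjusted p = 0.00833, in H19Ter/H19Ter), and is also named after its value had been seen. Stat3 rose by 0.26 ± 0.09 on the log2 scale in H19Ter+neo/H19Ter+neo (limma adjusted p = 0.0278) and by 0.59 ± 0.10 in H19Ter/H19Ter (limma adjusted p = 0.00282). Tbx3, at a low level, rose by 1.43 ± 0.31 (limma adjusted p = 0.00305) in H19Ter+neo/H19Ter+neo and by 1.82 ± 0.34 (limma adjusted p = 0.00513) in H19Ter/H19Ter.

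The 20 genes of male germ cell differentiation were read beside the factors. In H19Ter+neo/H19Ter+neo against WT, 12 were higher, beside 27.7% of all genes, and 3 lower, beside 26.7% (median log2 fold change 0.29). Between the mutants, 8 were higher in H19Ter+neo/H19Ter+neo, beside 12.5% of all genes, and 1 lower, beside 15.2% (median 0.20). In H19Ter/H19Ter against WT, 5 were higher, beside 14.1% of all genes, and 5 lower, beside 11.0% (median 0.08). The 8 went to 3 without the mean-variance trend, 5 with the same total per library, 3 without H19Ter/H19Ter replicate 3 and 4 without H19Ter/H19Ter replicate 4. The 5 higher and 5 lower went to 3 and 0 without the trend, 8 and 4 with the same total per library, 3 and 1 without WT replicate 2 or H19Ter/H19Ter replicate 4, and 5 and 3 without H19Ter/H19Ter replicate 3. Dnmt3l, the cofactor of de novo DNA methylation, rose by 1.21 ± 0.11 in H19Ter+neo/H19Ter+neo (limma adjusted p = 2.33e-05) and by 1.20 ± 0.12 in H19Ter/H19Ter (limma adjusted p = 0.00033) against WT. Piwil4, the piRNA-binding protein MIWI2, rose by 0.85 ± 0.09 (limma adjusted p = 5.52e-05) in H19Ter+neo/H19Ter+neo and by 0.47 ± 0.10 (limma adjusted p = 0.00896) in H19Ter/H19Ter. Nanos2, the RNA-binding protein that fixes the male germ cell fate, fell with the factors, with log2 fold changes of -1.12 ± 0.15 (limma adjusted p = 0.000209) in H19Ter+neo/H19Ter+neo and -0.51 ± 0.17 (limma adjusted p = 0.0481) in H19Ter/H19Ter.

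Immediate early genes, which sorting and digestion can induce, were counted because Klf4 itself can respond that way. Of 16 genes, 2 were higher, beside 27.7% of all genes, and 5 lower, beside 26.7%, in H19Ter+neo/H19Ter+neo against WT. In H19Ter/H19Ter against WT, 2 were higher, beside 14.1% of all genes, and 0 lower, beside 11.0%, with 2 lower by limma at an unadjusted p under 0.05. By the alternatives, the count of lower genes in H19Ter/H19Ter was 0 with voom, 1 after thinning to the lowest total, 1 with trends of GC content and length removed, and 3 (with 3 higher) in a fit of the 2 groups only, and 1 gene in place of 2 was higher with voom, after thinning, without the mean-variance trend and without WT replicate 2, H19Ter/H19Ter replicate 3 or H19Ter/H19Ter replicate 4. The 5 lower in H19Ter+neo/H19Ter+neo went to 1 without the mean-variance trend, 2 with trends of GC content and length removed, 1 without WT replicate 1, 2 without WT replicate 2 and 3 without H19Ter+neo/H19Ter+neo replicate 7. Their summed level was 296.3 to 366.5 CPM in H19Ter+neo/H19Ter+neo, 376.5 to 384.7 CPM in H19Ter/H19Ter and 382.2 to 410.3 CPM in WT. Egr2, a zinc finger gene of the growth factor response, rose by 1.59 ± 0.22 in H19Ter+neo/H19Ter+neo (limma adjusted p = 0.000242) and by 0.78 ± 0.25 in H19Ter/H19Ter (limma adjusted p = 0.0405) against WT. Socs3, an inhibitor of cytokine signalling, rose by 1.09 ± 0.19 (limma adjusted p = 0.000924) in H19Ter+neo/H19Ter+neo and by 1.53 ± 0.21 (limma adjusted p = 0.00142) in H19Ter/H19Ter. Zfp36, which encodes an mRNA decay factor, had log2 fold changes against WT of -0.88 ± 0.14 in H19Ter+neo/H19Ter+neo (limma adjusted p = 0.000545) and -0.45 ± 0.16 in H19Ter/H19Ter (limma adjusted p = 0.0556). The part of dissociation in the Klf4 result was not tested.

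**Figure D4:**
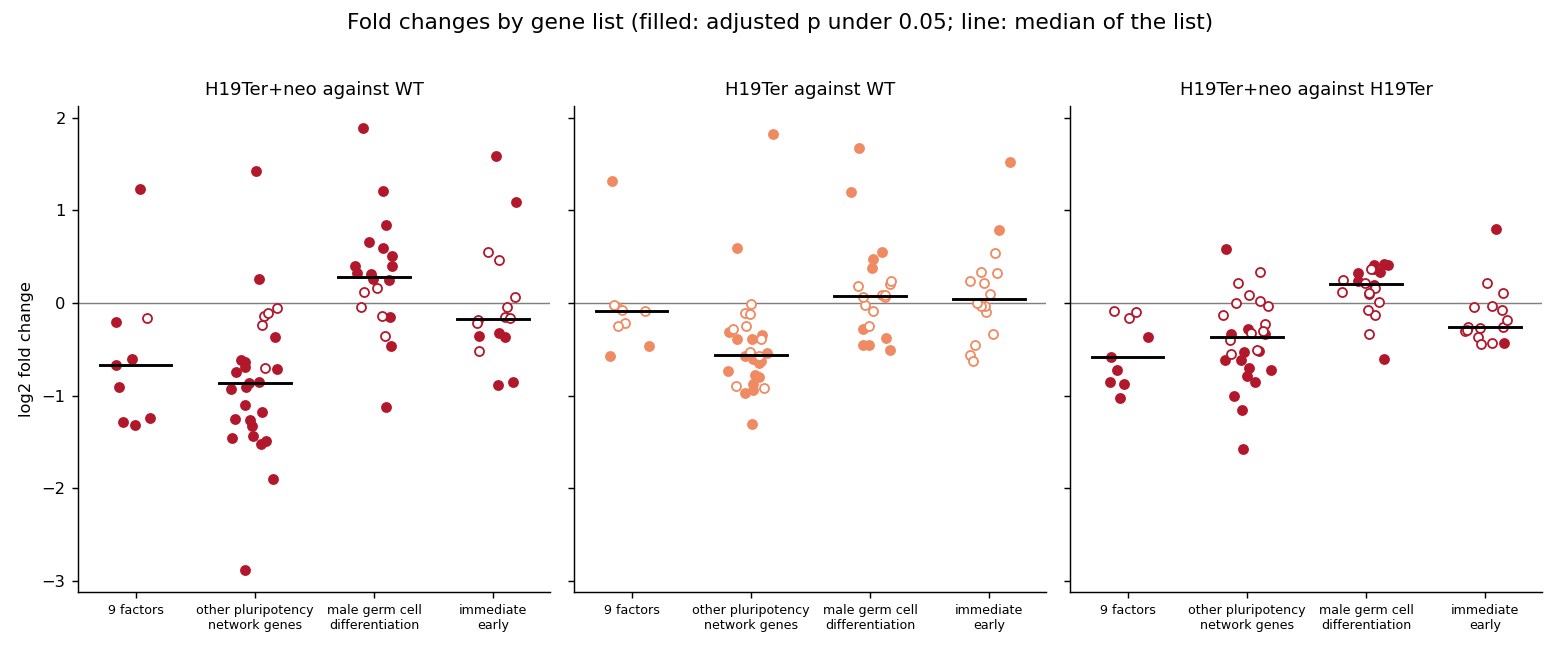
Log2 fold changes (y axis) of the 9 factors, the 28 other network genes, the 20 male germ cell differentiation genes and the 16 immediate early genes (x axis) in H19Ter+neo/H19Ter+neo against WT, in H19Ter/H19Ter against WT, and in H19Ter+neo/H19Ter+neo against H19Ter/H19Ter. Points are genes (filled where the adjusted p was under 0.05, spread sideways for view) and black lines are medians; the median of the other network genes lies at -0.86 in the first panel, -0.56 in the second and -0.36 in the last.

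The genes whose profile over the 7 libraries was closest to that of a core factor were found by the root mean square difference of log2 values after each gene's mean had been subtracted, among 14204 genes with a mean log2 CPM of at least 1. For Pou5f1 they were Rnps1 (0.04), the unnamed gene ENSMUSG00000109721 (0.04) and Rcc2 (0.04). Rnps1 encodes a splicing factor and Rcc2 a regulator of mitosis. For Sox2 they were Nr5a2 (0.07), a nuclear receptor on the list of other network genes, Wdr83 (0.07) and Cdh1 (0.07), the gene for E-cadherin. For Nanog they were Nfatc4 (0.08), Srgap3 (0.10) and Grap2 (0.10). Among the 9 factors themselves, Esrrb was the 5th closest gene to Nanog (0.12), Zfp42 was the 450th closest to Pou5f1 (0.11), and Klf4 was at distances of 0.81 from Pou5f1, 1.08 from Sox2 and 1.06 from Nanog. The 7 points fall into 3 genotypes, and the likeness is a description without a test.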

How the data were processed

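The authors trimmed reads with Trim Galore 0.6.0, aligned them with STAR 2.7.8 to mm10 and counted read pairs per gene. deepTools and edgeR appear in the submitters' processing notes as well. For annotation release and strand setting, nothing was stated. The deposited values are log2 CPM per gene and library, with a mean prior count of 2 added by the authors. Undoing the log gave whole read pairs for 100% of values (tolerance 1e-06). These gave the CPM, totals and alternatives. Groups were compared with limma 3.58.1 (R 4.3.3) on the deposited log2 values, with all 7 libraries, genotype only, moderated variances with a mean trend, two-sided, Benjamini-Hochberg over 20643 genes. Scripts were tested on simulated data. Nothing says that libraries of a genotype came from separate litters, so p-values measure only the spread between these libraries. All 9 factors are named. From 3 other lists the 3 genes with the largest change against WT among those that passed (mean log2 CPM of at least 1) are named, and for Pou5f1, Sox2 and Nanog the 3 closest genes. The factors and lists were chosen with earlier results of these data known. Exon lengths came from GENCODE (GRCm38; 20610 of 20643 gene IDs matched) and promoter windows from RefSeq (GRCm38.p6). List genes without a value were not analysed here. Alternatives changed the scaling, prior count, filter, variance model, depth and libraries.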

Additional observations from a re-analysis of the deposited data

How the results depend on the processing

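For H19Ter/H19Ter against WT, 5187 genes were called, but 2858 without the mean-variance trend, 3092 with voom weights, and between 1408 and 3777 when any 1 library was left out. Of the 9 factors, 3 were called there, 1 without the mean-variance trend, and between 1 and 2 when any 1 library was left out. For H19Ter+neo/H19Ter+neo against H19Ter/H19Ter, 5717 genes were called, and between 2326 and 5404 when any 1 library was left out. The fewer libraries of these fits lower the counts in part by construction, and otherwise the cause was not tested. With the same total per library the share of calls that were higher was 72.5% in place of 56.2% for H19Ter/H19Ter against WT, and 32.0% in place of 45.3% for H19Ter+neo/H19Ter+neo against H19Ter/H19Ter. With only genes of a mean log2 CPM of at least 1, it was 46.0% for H19Ter/H19Ter against WT. No call of a factor changed direction. Esrrb in H19Ter/H19Ter against WT lost its call with the same total (adjusted p = 0.0501) and, like Sox2 (adjusted p = 0.0896), without the trend (adjusted p = 0.103). Without the trend Utf1 in H19Ter+neo/H19Ter+neo against WT (adjusted p = 0.0822) and Zfp42 between the mutants (adjusted p = 0.105) were lost too, and Zfp42 also with voom weights (adjusted p = 0.051) and with the 2 groups compared only (adjusted p = 0.0527); all these are limma values. The calls of Klf4 against WT in both mutants, of Pou5f1, Sox2, Nanog, Zfp42, Esrrb and Tfcp2l1 in H19Ter+neo/H19Ter+neo against WT, and of Pou5f1, Sox2, Nanog, Esrrb and Tfcp2l1 between the mutants held under every alternative run. No paired analysis was possible because each library carries its own replicate number, which no other genotype shares. With 2 libraries in WT and 2 in H19Ter/H19Ter, 1 library decides much of the spread. The 9 factors had at least 563 read pairs in every library. Every H19Ter+neo/H19Ter+neo library was deeper than every other library, so depth went with genotype. After thinning to the lowest total, 1 factor was called higher and 7 lower in H19Ter+neo/H19Ter+neo against WT. Any other effect that goes with depth was not tested.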
